A study of Mus musculus with 6 samples.

Results

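The genes described here are 30 genes of sterol synthesis, uptake and efflux, measured in the liver of old mice with and without the type 2 inositol trisphosphate receptor. They were taken by symbol from a fixed list and matched to the probes of an Agilent whole-genome expression array through the accession printed for each probe. All 30 genes were found, on 44 probes, among 39429 probes in all, and 30 of the 17996 genes that could be tested are therefore members. The 2 groups were 3 Itpr2KO mice and 3 wild-type (WT) mice, with 1 array per mouse. Itpr2KO mice carry a knockout of Itpr2, which encodes a calcium release channel of the endoplasmic reticulum that is abundant in hepatocytes, and WT mice carry the intact gene. Both groups were C57Bl/6 mice 23 months old, kept on standard diet with no treatment as a survival cohort under pathogen-free conditions. The sex of the mice, the part of the gene removed and the cells in which it was removed are not given in the sources used here. Livers were snap-frozen and ground whole, so each array measures a mixture of liver cell types, and for every gene here fewer cells of a type and less RNA per cell cannot be told apart.

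Liver makes cholesterol from acetyl-CoA in a long chain of enzymes. The mevalonate pathway builds isoprenoid units and farnesyl diphosphate, squalene synthase commits them to sterols, squalene is cyclised to lanosterol, and a set of endoplasmic reticulum enzymes turns lanosterol into cholesterol. The transcription factor SREBP2, encoded by Srebf2, switches on most of these genes together when membrane sterol is low: Scap escorts it to the Golgi for cleavage, and the Insig proteins hold the Scap complex back in the endoplasmic reticulum when sterol is plentiful. The liver X receptors act in the opposite situation, sensing oxysterols and inducing the efflux pumps Abca1 and Abcg1 and Mylip, a ubiquitin ligase that removes the LDL receptor.

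The promoters of 2 synthesis genes and of 1 regulator are shown, because the synthesis genes varied together across the arrays while Insig2 did not follow them. The sequences are from RefSeq (GRCm38.p6), each with 250 bases before and 50 bases after the start of transcription on the gene's strand. Capitals mark matches to TCACNCCAC, a form of the sterol regulatory element bound by SREBP2, and to CCAAT, the box bound by the factor NF-Y, each searched on both strands (ATTGG is CCAAT on the other strand). The marked matches did not overlap one another in these 3 promoters.
Hmgcs1 chr13:119690101-119690400, plus strand: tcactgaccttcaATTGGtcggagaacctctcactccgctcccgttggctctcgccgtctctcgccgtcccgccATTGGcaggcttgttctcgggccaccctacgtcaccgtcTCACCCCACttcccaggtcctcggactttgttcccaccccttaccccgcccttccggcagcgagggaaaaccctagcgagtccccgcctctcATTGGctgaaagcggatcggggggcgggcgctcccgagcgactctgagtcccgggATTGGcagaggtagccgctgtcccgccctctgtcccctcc
Idi1 chr13:8885356-8885655, plus strand: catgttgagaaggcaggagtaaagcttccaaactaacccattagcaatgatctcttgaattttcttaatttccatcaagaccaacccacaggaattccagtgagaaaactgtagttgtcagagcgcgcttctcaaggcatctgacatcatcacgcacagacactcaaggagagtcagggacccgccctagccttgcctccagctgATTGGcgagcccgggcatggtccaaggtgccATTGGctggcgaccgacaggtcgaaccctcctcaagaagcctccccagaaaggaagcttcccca
Insig2 chr1:121332540-121332839, minus strand, 1 of its 3 listed start sites: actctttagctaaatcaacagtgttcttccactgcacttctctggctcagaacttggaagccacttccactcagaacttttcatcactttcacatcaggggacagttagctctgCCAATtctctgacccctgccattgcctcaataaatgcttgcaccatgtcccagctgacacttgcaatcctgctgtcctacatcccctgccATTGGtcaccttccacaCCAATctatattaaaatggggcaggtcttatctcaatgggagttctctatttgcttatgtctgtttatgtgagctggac
RefSeq promoters were matched for 24 of the 30 genes, 31 promoters in all. CCAAT was found in at least 1 promoter of 19 of those 24 genes and of 15 of the 16 synthesis genes among them. No share of all genes counted by gene is given here, so these counts stand without a background. Counted by promoter, 19 of the members' 31 promoters (61.3%) held it, beside 37.4% of all 32851 promoters in the table. Each of the 19 genes thus had it in 1 matched promoter only, which for Insig2 is the one shown. TCACNCCAC was found in the Hmgcs1 promoter alone among the 31, and in 1.24% of all promoters. Both are matches of letters in this window and show no binding.

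Each array held 44397 spots, 1377 of them controls, and 58.7% to 60.6% of the spots that were not controls were well above background. A level here is the log2 processed intensity minus the 75th percentile of its own array, so 0 is the level of the probe at that percentile, and levels of different probes cannot be set against each other. Differences are Itpr2KO minus WT on that log2 scale, tested across all genes with limma and Benjamini-Hochberg adjustment at 0.05. The precision is limited by 3 arrays per group, and an exact permutation test of a single gene cannot give a p below 0.1 with these group sizes. The arrays lay on 2 slides, each also scanned apart: slide 1 held Itpr2KO 1, WT 1 and WT 2, and slide 2 held Itpr2KO 2, Itpr2KO 3 and WT 3. The level of Itpr2, from a single probe, was 2.40, 2.23 and 2.06 on the Itpr2KO arrays, against 2.90, 2.94 and 2.97 on the WT arrays, a difference of −0.71 ± 0.13 (SE) with a limma adjusted p of 0.814. All Itpr2KO arrays were below all WT arrays, but where the probe lies relative to the removed part is not given, so it is only a partial check of the labels. All 8 hepatocyte markers were well above background on all arrays, with 7 of 8 higher in the Itpr2KO mean and summed levels of 959 to 1303 in Itpr2KO and 979 to 1083 in WT. The summed linear levels of 9 striated muscle markers were 0.348, 0.347 and 79.4 on the Itpr2KO arrays and 70.0, 0.317 and 0.433 on the WT arrays, so Itpr2KO 3 and WT 1 carry muscle transcripts. Itpr2KO 3 also had the highest fat marker sum of the 6, at 25.9, and the others lay between 2.35 and 6.37.

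No sterol gene passed the test. Of all 17996 genes 1 did, Mansc4, which is no member and is named only because it was the single call (0.00556% of genes called), and the members' adjusted p-values lay between 0.814 and 0.997. In the means, 24 of the 30 genes were higher and 6 lower in Itpr2KO liver, with a median difference of 0.28, whereas over all genes 51.4% were higher and the median was 0.0077. The synthesis enzymes carried this lean: 17 of 19 had a higher mean and their median was 0.33, beside 7 of 11 and 0.039 for the regulators, transport and efflux genes. That median of the synthesis enzymes was −0.12 within slide 2 and −0.18 with a normexp background correction on raw signals, a correction in which a few very bright background readings on Itpr2KO 1 and Itpr2KO 2 enter, and it was 0.33 again with those readings capped. At an unadjusted p under 0.05, 3 members were higher (Pmvk, Dhcr7 and Scap) and 0 lower, where 3.14% and 2.90% of all genes were. The groups did not overlap for 3 members that were higher in Itpr2KO (Pmvk, Scap and Nr1h2) and for 1 that was lower (Abcg1), where 6.11% and 5.66% of the genes measured on all 6 arrays were. Both counts of higher genes rest on 3 genes of 30.

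**Figure D1:**
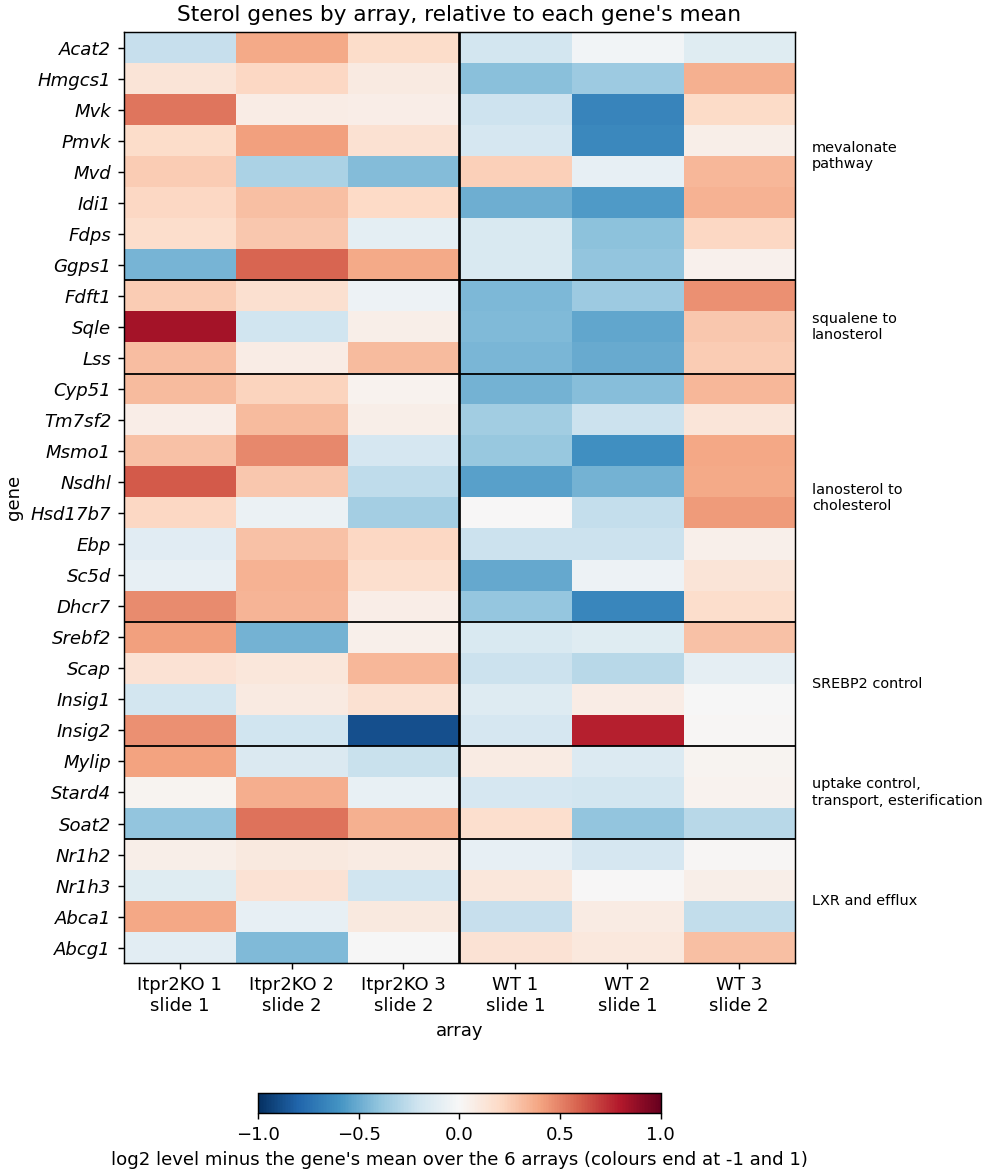
Levels of the 30 sterol genes (down the page, grouped by step) on the 3 Itpr2KO arrays and then the 3 WT arrays, as the log2 level minus the gene's mean over the 6 arrays. Through the 19 synthesis genes WT 1 and WT 2 are mostly blue. WT 3 is on average about as red as Itpr2KO 1 and Itpr2KO 2, and Itpr2KO 3 is paler (mean 0.033). The lower steps show no such columns as a whole, though 3 of their 11 genes have WT 1 and WT 2 lowest.

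The mevalonate pathway had 8 members, of which 7 had a higher and 1 a lower mean in Itpr2KO liver, with a median difference of 0.31. Its median was 0.49 within slide 1 and −0.11 within slide 2. Hmgcs1, the synthase that makes HMG-CoA from acetoacetyl-CoA, was at 6.60, 6.67 and 6.56 on the Itpr2KO arrays, against 6.05, 6.11 and 6.82 on the WT arrays. The Itpr2KO arrays lay close together (SD 0.060, n = 3), while WT 3 was above all of them and WT 1 and WT 2 well below. Its difference was 0.28 ± 0.23 (SE). Idi1, the isomerase that makes the reactive isoprene unit, showed the same layout with 5.37, 5.46 and 5.36 in Itpr2KO, against 4.68, 4.60 and 5.51 in WT. Its difference of 0.47 ± 0.26 (SE) comes to 0.73 within slide 1 and −0.099 within slide 2.

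Pmvk, the second kinase of the pathway, was the only synthesis enzyme whose groups did not overlap. Its levels were 5.71, 5.94 and 5.68 in Itpr2KO, against 5.36, 4.88 and 5.59 in WT, a difference of 0.50 with a 95% interval of 0.0030 to 1.00. The lowest Itpr2KO array and WT 3 were nearly level. An exact permutation test gave 0.1, the smallest p possible here, which follows from the lack of overlap and adds nothing to it. A second Pmvk probe gave a difference of 0.51, but on it WT 3 (4.37) lay above Itpr2KO 3 (4.33), so its groups overlap. Mvk, the kinase before it, was at 3.67, 3.21 and 3.20 in Itpr2KO and 2.93, 2.48 and 3.33 in WT, and its 2 probes gave 0.45 and 0.46. WT 3 again lay among the Itpr2KO arrays.

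Mvd, the decarboxylase that follows Pmvk, had a lower mean in Itpr2KO over all 6 arrays. It was at 2.01, 1.44 and 1.31 in Itpr2KO, against 1.99, 1.67 and 2.08 in WT, a difference of −0.33 ± 0.22 (SE). Itpr2KO 1 lay among the WT arrays and the other 2 Itpr2KO arrays below them. The difference was 0.18 within slide 1 and −0.71 within slide 2, so its direction turns between them, and it was −0.15 without the muscle arrays (Itpr2KO 3 and WT 1), −0.54 without Itpr2KO 1 and −0.19 without Itpr2KO 3. Acat2, the cytosolic thiolase of the first step, differed by 0.22, with Itpr2KO arrays at 4.77 to 5.37 and WT arrays at 4.81 to 4.97. Fdps, which makes farnesyl diphosphate, differed by 0.24, with 5.77 to 6.14 in Itpr2KO and 5.46 to 6.07 in WT. Ggps1, which leads to geranylgeranyl diphosphate and so to protein prenylation rather than sterols, differed by 0.33 and had its lowest array in Itpr2KO (−1.21 to −0.16, against −1.14 to −0.70 in WT). The ranges of the 2 groups overlap for all of these.

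From squalene to lanosterol all 3 enzymes had a higher mean in Itpr2KO liver, with a median difference of 0.46, 0.79 within slide 1 and −0.34 within slide 2. That median was 0.17 without Itpr2KO 1 and 0.71 without WT 3. Sqle, squalene epoxidase, a rate-controlling oxygenase, was at 5.00, 3.97 and 4.23 in Itpr2KO, against 3.73, 3.65 and 4.44 in WT. Itpr2KO 1 stood well above the other 2 Itpr2KO arrays, and WT 3 lay between it and them. The pooled difference was 0.46 ± 0.33 (SE), and its values within the slides, 1.31 and −0.34, were the furthest apart of the 30 genes. Without Itpr2KO 1 the difference was 0.16, and without WT 3 it was 0.71. Lss, which closes the rings to lanosterol, was at 1.48, 1.24 and 1.49 in Itpr2KO, against 0.71, 0.67 and 1.42 in WT (0.47 ± 0.23, SE). Fdft1, squalene synthase, was at 3.22, 3.13 and 2.92 in Itpr2KO, against 2.52, 2.60 and 3.43 in WT (0.24 ± 0.26, SE), and a much dimmer second probe gave −0.015. For Lss and Fdft1 too, WT 1 and WT 2 were the low arrays and WT 3 was with or above the Itpr2KO arrays.

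From lanosterol to cholesterol 7 of 8 enzymes had a higher mean in Itpr2KO liver, with a median difference of 0.34, 0.56 within slide 1 and −0.088 within slide 2. Dhcr7, the reductase that makes cholesterol itself, had the largest mean difference of the 30 genes, 0.58 with a 95% interval of 0.0030 to 1.16. Its levels were 2.60, 2.46 and 2.19 in Itpr2KO, against 1.74, 1.47 and 2.30 in WT. Itpr2KO 3 lay below WT 3, so the groups overlap, and the difference was 1.00 within slide 1 and 0.027 within slide 2. Cyp51, the lanosterol demethylase, was at 1.20, 1.11 and 0.92 in Itpr2KO, against 0.41, 0.46 and 1.22 in WT. Nsdhl, a dehydrogenase that helps remove the methyl groups of lanosterol, was at 1.61, 1.27 and 0.75 in Itpr2KO, against 0.46, 0.53 and 1.39 in WT. For Cyp51 and Nsdhl all 3 Itpr2KO arrays were above WT 1 and WT 2, and WT 3 was above at least 2 of them.

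Msmo1, the methylsterol oxygenase, differed by 0.40, with 5.41 to 6.06 in Itpr2KO and 4.96 to 5.97 in WT. Tm7sf2, a sterol reductase, differed by 0.29, with 5.26 to 5.52 in Itpr2KO and 4.86 to 5.32 in WT, and its second probe by 0.19. Ebp, a sterol isomerase, differed by 0.26, and Sc5d, a sterol desaturase, by 0.29, and these were higher within both slides (0.10 and 0.20 for Ebp, 0.20 and 0.12 for Sc5d). Hsd17b7, the ketoreductase of sterol demethylation, was at 1.41, 1.15 and 0.86 in Itpr2KO, against 1.21, 0.97 and 1.63 in WT. Its difference was −0.13 ± 0.23 (SE) and a second probe of like brightness gave 0.10, so its direction is not settled.

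**Figure D2:**
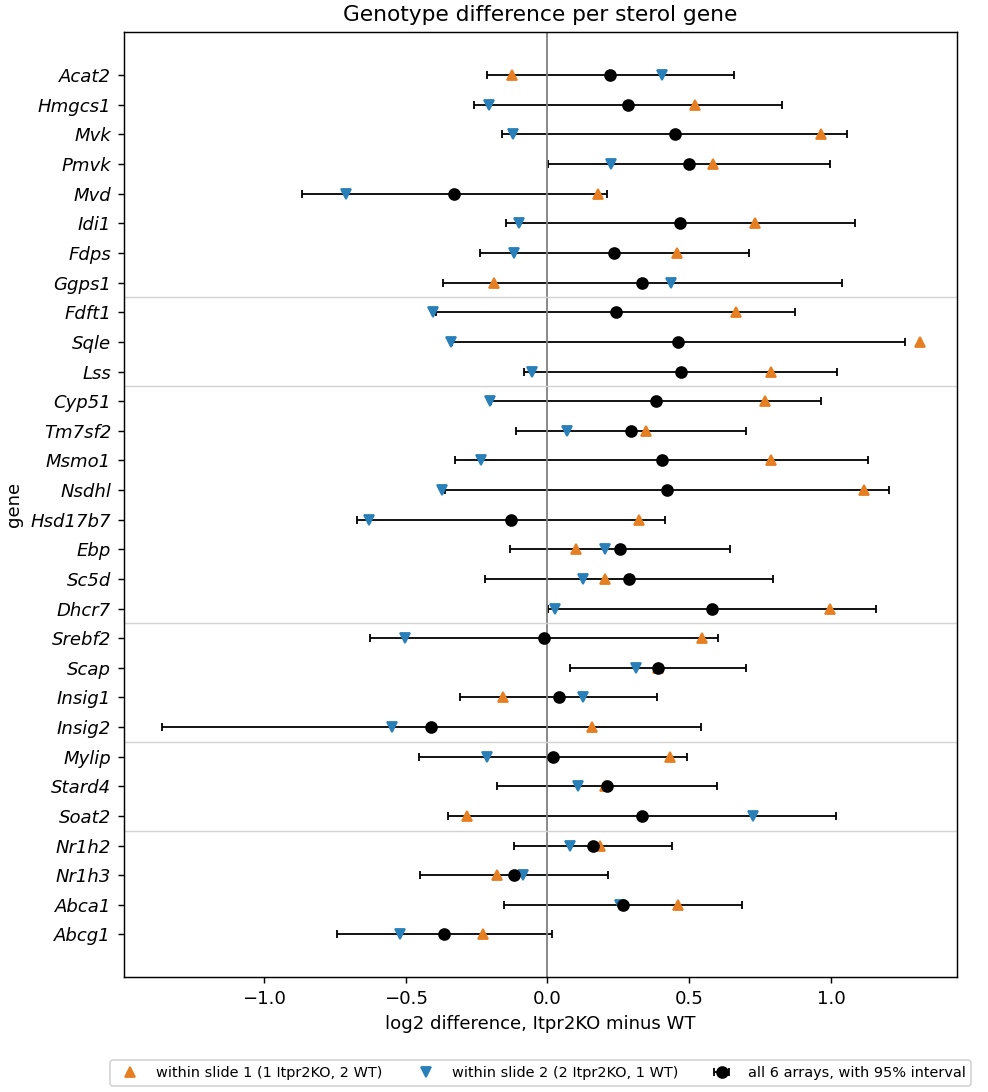
Difference of each gene (Itpr2KO minus WT, log2) over all 6 arrays with its 95% interval (black), within slide 1 (upward triangles) and within slide 2 (downward triangles), with genes in the order of the pathway. Most synthesis genes lie right of 0 within slide 1 and left of it within slide 2, while Scap lies at 0.39 and 0.31.

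Most synthesis genes shared a layout across the arrays that did not follow genotype alone, and this layout was picked out after the values had been seen. WT 1 and WT 2 were the lowest of the 6 arrays for 14 of the 19 synthesis genes, where 7.11% of all genes were laid out that way. The exceptions were Acat2, Mvd, Ggps1, Hsd17b7 and Sc5d. Of the 11 other members, 3 were laid out that way too (Scap, Stard4 and Nr1h2). WT 3 was above both other WT arrays for 18 of 19 genes (38.4% of all genes) and above the mean of the Itpr2KO arrays for 11 of 19 (52.7% of all genes). Averaged over the 19 genes, each taken as the deviation from its own mean, the arrays stood at 0.21, 0.22 and 0.033 for Itpr2KO and at −0.30, −0.39 and 0.23 for WT. WT 3 was therefore the highest array of all in this average, and Itpr2KO 3 the lowest of its genotype.

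By pairs of arrays, the median difference of the 19 genes was 0.55 and 0.62 for Itpr2KO 1 against WT 1 and WT 2, and −0.078 against WT 3. For Itpr2KO 2 it was 0.61 and 0.57 against WT 1 and WT 2, and −0.047 against WT 3. For Itpr2KO 3 it was 0.41 and 0.45 against WT 1 and WT 2, and −0.15 against WT 3. All 3 Itpr2KO arrays thus differed from WT 1 and WT 2 in one direction and lay closer to WT 3. Over all genes the same pairs had medians between −0.048 and 0.066.

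The slides divide the WT arrays in the same way as these levels do, since WT 1 and WT 2 were on slide 1 and WT 3 on slide 2, so slide and mouse cannot be told apart among the WT arrays. Itpr2KO 1, also on slide 1, stood at 0.21, and WT 1 and WT 2 at −0.30 and −0.39. On slide 2, Itpr2KO 2, Itpr2KO 3 and WT 3 stood at 0.22, 0.033 and 0.23. The median of the synthesis genes was 0.59 within slide 1, with 17 of 19 higher, −0.12 within slide 2, with 7 of 19 higher, and 0.21 with slide as a block. Without WT 3, 12 members had an unadjusted p under 0.05 in limma and a higher level in Itpr2KO, beside 429 of all 17996 genes. Without WT 1 or without WT 2 the number of members was 0, beside 453 and 301 of all genes. Without Itpr2KO 3 and WT 1, the arrays with muscle transcripts, the median of the synthesis genes was 0.32 with 17 of 19 higher, about as large as with them.

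**Figure D3:**
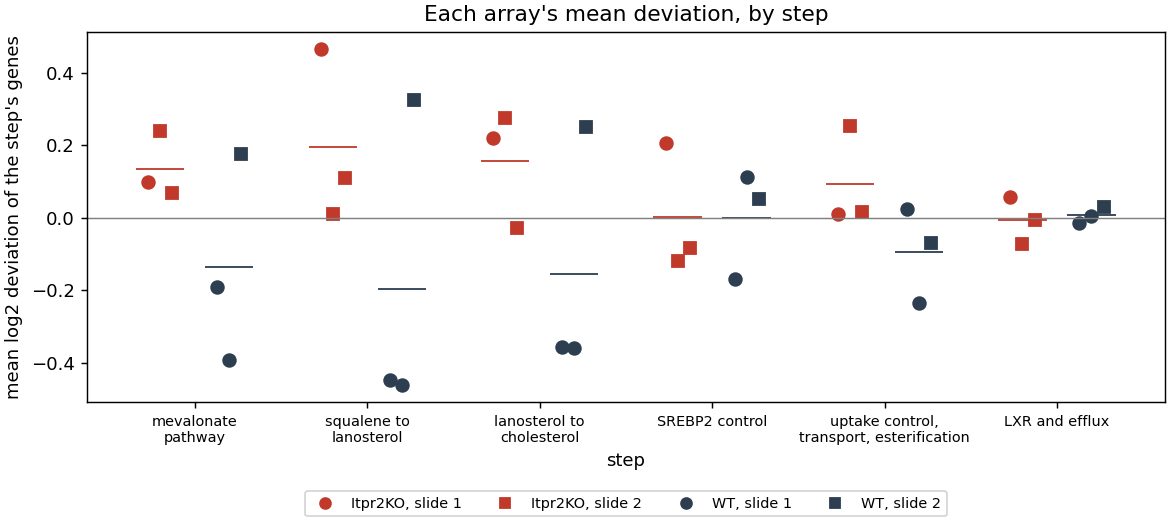
Mean log2 deviation of the genes of each step on each array, with Itpr2KO (red) left of WT (dark) in each step, circles for slide 1, squares for slide 2 and a line at each group's mean of 3 arrays. In the 3 synthesis steps WT 1 and WT 2 lie between −0.46 and −0.19 and WT 3 between 0.18 and 0.33, while the LXR and efflux step stays within −0.072 and 0.056 on all arrays.

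Among the 4 genes that control SREBP2, 2 had a higher and 2 a lower mean, and the median difference was 0.014 (−0.054 to 0.11 with 1 array left out). Scap, the sterol-sensing escort of SREBP2, was at 4.15, 4.12 and 4.34 in Itpr2KO, against 3.79, 3.73 and 3.92 in WT. Every Itpr2KO array was above every WT array, and WT 1 and WT 2 were the lowest arrays, as in most synthesis genes. The difference was 0.39 ± 0.13 (SE), a 1.31-fold higher level with a 95% interval of 0.080 to 0.70 on the log2 scale, the smallest unadjusted p of the members (0.0213 in limma, adjusted p 0.814). It was 0.39 within slide 1, 0.31 within slide 2 and 0.31 without Itpr2KO 3 and WT 1. Since the groups do not overlap, a higher mean in each of these subsets was fixed in advance. With the uncapped normexp correction the difference was −0.23. Srebf2 itself was at −0.51, −1.39 and −0.87 in Itpr2KO, against −1.07, −1.04 and −0.63 in WT, a difference of −0.012 ± 0.25 (SE). The near-zero value averages opposite differences of 0.54 within slide 1 and −0.50 within slide 2, and a dimmer Srebf2 probe gave −0.53, so no direction is settled.

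Insig1, which retains the Scap complex and is itself an SREBP target, was at 1.64, 1.91 and 1.98 in Itpr2KO, against 1.69, 1.90 and 1.82 in WT. These ranges nearly coincide, and the 95% interval of its difference (0.039) was −0.31 to 0.39. Insig2, the second retention protein, had the widest spread of the regulators, at 4.36, 3.70 and 3.02 in Itpr2KO, against 3.73, 4.67 and 3.91 in WT. Its difference was −0.41 ± 0.39 (SE), and its other probe gave −0.52. The difference was 0.16 within slide 1 and −0.55 within slide 2, so its direction turns between them. The lowest array was Itpr2KO 3, which carries muscle transcripts. Without that array the difference was −0.075, without WT 2 −0.13, without Itpr2KO 1 −0.74, and without both muscle arrays −0.26. Whether the muscle RNA has a part in these values was not tested.

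The control of LDL uptake, intracellular sterol transport and esterification were represented by 3 genes with a median difference of 0.21, which was 0.098 without Itpr2KO 2. Mylip was at 0.0047, −0.55 and −0.62 in Itpr2KO, against −0.32, −0.53 and −0.37 in WT. Its difference was 0.020 ± 0.20 (SE) from an Itpr2KO group more spread than WT, and a second probe near background gave −0.29. Stard4, a carrier of cholesterol between membranes, was at 2.46, 2.80 and 2.36 in Itpr2KO, against 2.26, 2.25 and 2.47 in WT (0.21 ± 0.16, SE). Of the 3 genes it alone had WT 1 and WT 2 as its lowest arrays, as most synthesis genes did. A dimmer second Stard4 probe gave 0.045, and on it Itpr2KO 3 (−2.13) lay below WT 1 (−1.95) and WT 2 (−2.11). Soat2, which esterifies cholesterol in hepatocytes for storage and lipoproteins, was at 1.84, 2.78 and 2.59 in Itpr2KO, against 2.40, 1.84 and 1.96 in WT. Its difference of 0.33 ± 0.28 (SE) was −0.28 within slide 1 and 0.72 within slide 2, the reverse of the slide order seen in most synthesis genes, and it was 0.15 without Itpr2KO 2 and 0.62 without Itpr2KO 1.

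Among the liver X receptors and efflux pumps 2 genes had a higher and 2 a lower mean, with a median difference of 0.021. Abcg1, which passes cholesterol to lipoprotein particles and is abundant in macrophages, was at 0.43, 0.091 and 0.53 in Itpr2KO, against 0.67, 0.63 and 0.83 in WT. Every Itpr2KO array was below every WT array, which by itself sets the p of an exact permutation test at 0.1 with 3 arrays per group. The difference was −0.36 ± 0.16 (SE), with a 95% interval of −0.74 to 0.017, and it was −0.23 within slide 1, −0.52 within slide 2, −0.47 without Itpr2KO 3 and WT 1, and −0.23 without Itpr2KO 2. Abca1, which loads cholesterol onto apolipoprotein A-I, had the opposite sign. It was at 2.91, 2.44 and 2.62 in Itpr2KO, against 2.30, 2.61 and 2.28 in WT, a difference of 0.27 ± 0.17 (SE) that was 0.46 and 0.25 within the slides and 0.14 without Itpr2KO 1. WT 2 lay among the Itpr2KO arrays for Abca1.

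Markers of liver macrophages were read beside Abcg1, and none of them passed the test. All 10 Kupffer cell markers had a lower mean in Itpr2KO liver, with summed levels of 100.1 to 136 in Itpr2KO and 131 to 256 in WT, which overlap. Of the 9 monocyte and macrophage markers tested, 6 had a lower and 3 a higher mean, and their summed levels were 33.2 to 46.0 in Itpr2KO and 49.1 to 64.4 in WT, without overlap. All markers of these 2 lists that the arrays hold were well above background on all arrays. Their part in the level of Abcg1 was not tested.

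Nr1h2, the liver X receptor found in most cell types, was at 3.07, 3.11 and 3.09 in Itpr2KO, against 2.93, 2.84 and 3.02 in WT. The groups do not overlap, the Itpr2KO arrays lie within a narrow band (SD 0.017, n = 3), and the difference of 0.16 ± 0.12 (SE) is small. Nr1h3, the receptor dominant in liver, was at 4.20, 4.46 and 4.12 in Itpr2KO, against 4.43, 4.32 and 4.38 in WT. Its 2 probes gave −0.12 and −0.15, and the Itpr2KO arrays span the WT arrays.

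**Figure D4:**
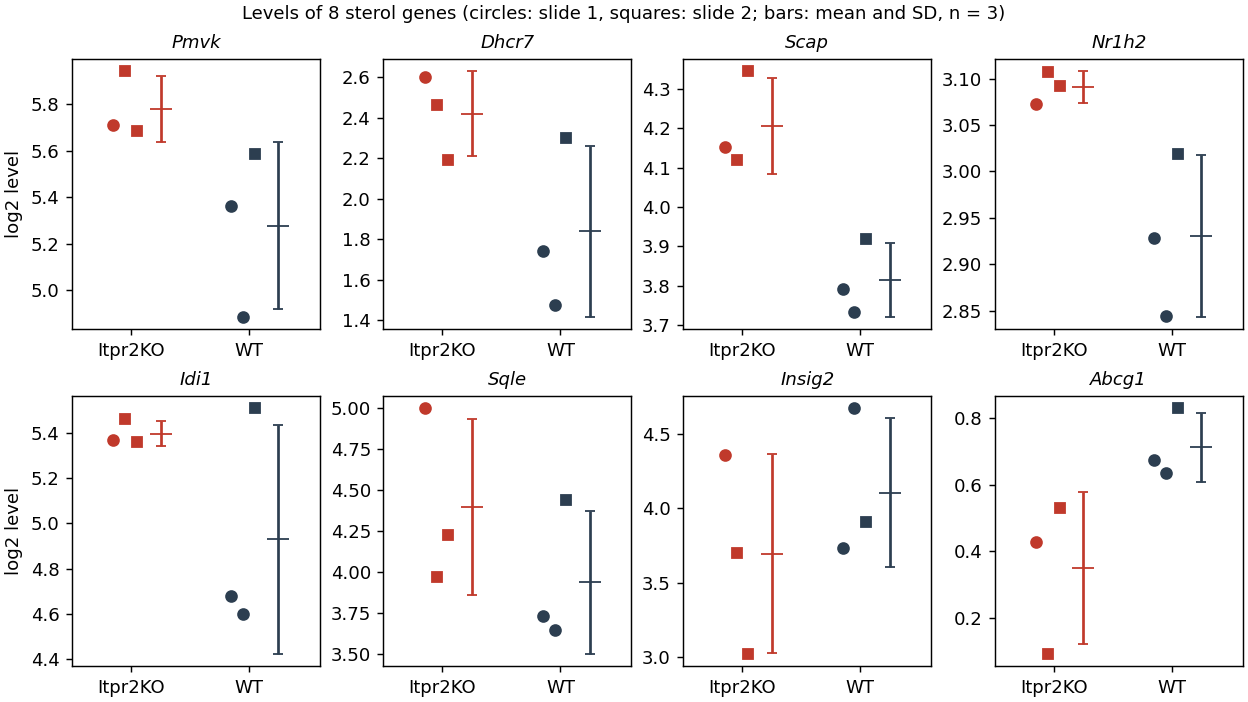
Log2 levels of 8 sterol genes on each array, Itpr2KO left of WT, with circles for slide 1, squares for slide 2, and bars for mean and SD of 3 arrays; each panel has its own axis, which does not start at 0. The groups do not overlap for Pmvk, Scap, Nr1h2 and Abcg1, so they are also apart on each slide. For Idi1, Sqle and Dhcr7 the square of WT 3 lies among or above the Itpr2KO arrays.

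Neighbouring genes of the pathway, 43 in 4 lists, were read from the same fit. Of the 42 tested, 19 had a higher and 23 a lower mean in Itpr2KO liver, with a median difference of −0.047, and 0 passed the test (0 also at an unadjusted p under 0.05 in limma). WT 1 and WT 2 were the lowest arrays for 3 of these 42. The processing of SREBP and sterol-triggered degradation (9 genes) had 6 higher and a median of 0.042, and the LXR targets and partners (6 tested of 7) had 4 higher and a median of 0.059. The side branches of the mevalonate pathway, which make ubiquinone, dolichol and prenylated proteins (11 genes), had 8 lower and a median of −0.11. Lipoprotein uptake and sterol transport (16 genes) had 10 lower and a median of −0.077. The groups did not overlap for 5 of the 42 that were lower in Itpr2KO and for 0 that were higher. Among the genes measured on all 6 arrays the shares were 5.66% lower and 6.11% higher. The 5 were Pdss1 of ubiquinone synthesis, Icmt and Rce1 of prenyl protein maturation, Lrpap1, the chaperone of LDL receptor family members, and Osbp, an oxysterol-binding transporter. These 5 were picked out after their values were seen. Their differences were −0.23, −0.30, −0.21, −0.12 and −0.31.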

How the data were processed

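Total RNA of whole frozen liver was labelled with Cy3 and hybridised to 1-colour Agilent arrays, per the labels' protocols. Agilent Feature Extraction made the intensity values in the deposited scanner tables. Its release is 11.5.1.1 in the file headers and 10.7.3.1 in the submitters' processing notes. The processed intensity is background-subtracted and not scaled between arrays, per the file headers. The authors also deposited a table of log2 values for 20644 probes, whose column medians lie between −0.013 and 0.011. Set against the scanner values it is scaled, centred on each probe and runs in the direction of signal, but its columns for Itpr2KO 2 and Itpr2KO 3 correlated with the scanner arrays Itpr2KO 3 and Itpr2KO 2 (r = 0.999 each, across probes), so it served only as an alternative.

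From the processed intensity, log2 values were centred on the array's 75th percentile. Outlier spots (818 over 6 arrays) were left out, and spots of a probe were averaged. Accessions gave 28330 of 39429 probes a RefSeq symbol (GRCm38.p6 table, names only) and 11099 none. A gene needed a probe well above background on all 3 arrays of a genotype, and its brightest such probe stood for it. All 30 members' probes were so on all 6 arrays. Of the 13 members with several probes, 3 had probes of opposite sign (Fdft1, Hsd17b7 and Mylip). Tests used limma 3.58.1 in R 4.3.3 over 17996 genes, checked on simulated data. Alternatives were normalization, background correction, filter, probe choice, outlier spots, slide, replicate number and arrays left out. The planned normexp used the median signal, since the tables hold no mean signal. Every member is named. Members, lists and markers were chosen with earlier results of these data known. Replicates are separate mice per the labels.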

Additional observations from a re-analysis of the deposited data

How the results depend on the processing

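With 3 arrays per group on 2 slides, the 95% intervals of 27 of the 30 members include 0, and slide and mouse cannot be told apart among the WT arrays. No member passed the test under any alternative run. The single call of the whole table was 0 under normexp on the raw median signal, normexp with capped background (added after the data were seen), a filter on all arrays, the replicate block, leaving out the arrays with muscle transcripts (Itpr2KO 3 and WT 1) and eBayes with trend and robust, and 0 to 1 when 1 array was left out. The replicate numbers do not pair the mice (r of deviations of same-numbered arrays −0.19, 0.042 and −0.28). With the replicate block the member median stayed 0.28, and 1 member had an unadjusted p under 0.05, beside 1148 of all 17995 genes tested.

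Normexp moved the median of all genes to 0.14 (0.040 capped) and gave 5017 genes higher and 886 lower at an unadjusted p under 0.05, beside 565 and 522 in the reported fit and 274 and 627 with arrays centred on the median. Local background reached 9484 on Itpr2KO 1 and 77414 on Itpr2KO 2, against 39 to 128 on the other arrays. With normexp the medians were −0.24 (all members), −0.18 (synthesis), −0.19 (mevalonate), −0.15 (squalene to lanosterol), −0.18 (lanosterol to cholesterol), −0.38 (SREBP2 control), −0.30 (uptake, transport, esterification) and −0.41 (LXR and efflux). It turned the sign of 21 members: Acat2 −0.29, Hmgcs1 −0.20, Mvk −0.18, Pmvk −0.065, Idi1 −0.11, Fdps −0.29, Fdft1 −0.34, Sqle −0.15, Lss −0.058, Cyp51 −0.079, Tm7sf2 −0.26, Msmo1 −0.15, Ebp −0.31, Sc5d −0.22, Srebf2 0.43, Scap −0.23, Insig1 −0.53, Stard4 −0.36, Soat2 −0.30, Nr1h2 −0.48 and Abca1 −0.34. The cause was not tested. With the background capped, 2 members turned (Srebf2 and Insig1), and the median was 0.27 for all members and 0.33 for synthesis. By step, the capped medians were 0.31 (mevalonate), 0.39 (squalene to lanosterol), 0.32 (lanosterol to cholesterol), −0.013 (SREBP2 control), 0.23 (uptake, transport, esterification) and 0.0037 (LXR and efflux).

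Within slide 2 the medians were −0.093 (all members), −0.12 (synthesis), −0.11 (mevalonate), −0.34 (squalene to lanosterol), −0.088 (lanosterol to cholesterol), −0.19 (SREBP2 control) and −0.0033 (LXR and efflux). Within slide 1 squalene to lanosterol gave 0.79 and SREBP2 control 0.27. The LXR and efflux median was also −0.046 with arrays centred on the median, 0.069 without the muscle arrays, and −0.033 to 0.056 with 1 array left out. With 1 array left out, the median ran from 0.20 to 0.41 for all members, 0.24 to 0.53 for synthesis, 0.21 to 0.49 for mevalonate, 0.17 to 0.71 for squalene to lanosterol, 0.23 to 0.54 for lanosterol to cholesterol, −0.054 to 0.11 for SREBP2 control and 0.098 to 0.28 for uptake, transport and esterification, with the upper end without WT 3 for all of these but SREBP2 control (without Itpr2KO 2). Members near 0 turned under other settings. Srebf2 was 0.00031 with quantile normalization, 0.0046 with capped normexp and 0.021 with the slide block. Insig1 was −0.028 centred on the median, −0.030 with capped normexp, −0.016 with the slide block and −0.086 without the muscle arrays. Mylip was −0.047 centred on the median and −0.14 as the mean of its probes. With 1 array left out, Hsd17b7 ran from −0.28 to 0.054, Srebf2 from −0.22 to 0.22, Insig1 from −0.029 to 0.14 and Mylip from −0.18 to 0.14. Members with an unadjusted p under 0.05 and a higher level were 0 with normexp, with arrays centred on the median and without the muscle arrays. Over all genes these settings gave 5017, 274 and 535. The number was 1 with the slide block, without filter, without Itpr2KO 2 and without Itpr2KO 3, beside 465, 782, 625 and 613 of all genes. It was 5 without Itpr2KO 1, beside 820 of all genes. Genes tested were 17996, but 17995 without the muscle arrays and 32095 without filter. Groups that did not overlap, higher, were 1 with arrays centred on the median and 0 with normexp, and Abcg1 overlapped with capped normexp. WT 1 and WT 2 were lowest for 10 synthesis genes with arrays centred on the median and 1 with normexp. For these last counts of overlap and array order, no shares of all genes under the same settings are given.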
